A study of Homo sapiens with 21 samples.

Results

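The integrin β subunit genes are the 8 genes *ITGB1* to *ITGB8*, found by their symbols among the 23201 gene symbols measured, and all 8 were present. Their transcripts were followed by RNA-seq in the cell line HMLE, human mammary epithelial cells made immortal in culture. The cells were sampled untreated (d0) and at days 1, 4, 7, 10, 15 and 20 of exposure to TGFβ, a cytokine that drives epithelial-to-mesenchymal transition (EMT). Each timepoint had 3 libraries, 21 in all, described by the authors as biological triplicates, and nothing but the TGFβ exposure and its length is stated to differ between groups. All groups are the same immortalized cell line, and no genetic difference between them is stated. The d0 cells are the only untreated group, and no untreated cells of a later day were analysed here. Time in culture and time in TGFβ thus cannot be told apart. Cells were seeded at one density.

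Integrins are receptors made of one α and one β chain that bind extracellular matrix or other cells and connect them, through adaptor proteins on the β tail, to the actin cytoskeleton. β1 pairs with many α chains and is the common partner of matrix receptors, while β4 pairs with α6 in hemidesmosomes, the junctions that fix basal epithelial cells to laminin and to keratin filaments. β3, β5, β6 and β8 pair with αv and bind RGD motifs, and αvβ6 and αvβ8 release active TGFβ from its latent complex, while β2 and β7 are mainly known from leukocytes.

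In HMLE cells *ITGB1*, *ITGB3*, *ITGB4*, *ITGB5* and *ITGB6* were higher than at d0 on each of the 6 treated days, *ITGB2* was higher from d4 on, and *ITGB8* was lower on each treated day. The differences ranged from 1.66-fold for *ITGB5* at d15 to 10.9-fold for *ITGB6* at d4 among the genes with high counts, and *ITGB8* fell to 0.213 of its untreated level at d20. *ITGB7*, with 12 to 17 reads in the d0 libraries and fewer in every treated one, averaged under 10 over all libraries and was not tested. All values below are normalized read counts, that is, reads scaled by the size factor of their library, and differences between groups were tested by limma on log2(value + 1), with Benjamini-Hochberg adjusted p under 0.05 taken as a change.

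The RNA came from whole cultures, so fewer cells of a type and less RNA per cell cannot be told apart. Libraries held between 18847917 and 22667754 reads, and 13343 genes whose mean reached 10 were tested, among them 7 of the 8 β subunit genes. The third d7 library stood apart, with a root mean square log2 distance of 0.46 and 0.47 from the other two, against 0.21 to 0.24 for the 18 pairs of libraries within the other timepoints. The 5 TGFβ response genes listed, among them *PMEPA1*, *TGFBI* and *SMAD7*, were higher than d0 at every treated day, as were all 5 mesenchymal markers. Among the latter *ZEB1*, with a mean of 5.7 at d0, passed the filter only through treated libraries. Of the 5 epithelial markers between 3 and 5 were lower than d0 on each day, and 1 was higher at d4 and at d7, the latter call being lost without the first d0 or the first or second d7 library. Of the 5 basal mammary markers the number higher ranged from 1 at d10 to 4 at d7 and d15, and the number lower from 0 at d7 to 3 at d10. Without the third d7 library, the basal marker *KRT5* and 1 more epithelial marker were also called higher at d7. Their log2 differences were then 0.37 and 0.11 (limma adjusted p = 3.19e-13 and 0.0053), against 0.05 and 0.005 with that library. Beside these counts, 31.3% to 39.2% of all genes tested were higher and 28.5% to 37.3% lower over the treated days. Rescaling every library to the same total moved the median log2 difference of all genes from between 0.00 and 0.03 to between -0.20 and -0.14, and the share of called genes that were higher than d0 from between 51.1% and 54.6% to between 26.7% and 39.1%, and quantile normalization moved that share to between 41.9% and 47.7%. The directions of the β subunit genes against d0 did not change with either.

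The promoters of 4 of these genes are shown because *ITGB1*, *ITGB5* and *ITGB6* were higher than d0 on every treated day and *ITGB8* was lower. Each sequence is the 250 bases before a start site in RefSeq (GRCh38.p14), 5′ to 3′ on the gene's strand, and 5 of the 8 genes had an entry. Capitals mark matches to CAGAC or GTCTG, the letters of a SMAD-binding element on both strands, or to CAGGTG or CACCTG, an E-box that ZEB and SNAIL factors bind. The read counts themselves were made on hg19 and do not depend on these coordinates. The windows printed for *ITGB1* and *ITGB5* are those of the most upstream of 2 and 3 start sites listed.
ITGB1, chr10:32958231-32958480, minus strand: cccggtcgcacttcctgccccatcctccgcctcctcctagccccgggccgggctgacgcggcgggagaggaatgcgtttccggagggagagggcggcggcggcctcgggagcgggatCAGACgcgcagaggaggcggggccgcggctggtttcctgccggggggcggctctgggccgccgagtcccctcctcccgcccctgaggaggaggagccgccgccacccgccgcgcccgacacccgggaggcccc
ITGB5, chr3:124901419-124901668, minus strand: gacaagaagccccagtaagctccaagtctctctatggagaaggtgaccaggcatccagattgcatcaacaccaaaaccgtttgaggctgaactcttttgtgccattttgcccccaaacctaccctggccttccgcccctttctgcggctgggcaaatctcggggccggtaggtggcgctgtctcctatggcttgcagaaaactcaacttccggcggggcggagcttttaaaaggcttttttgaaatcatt
ITGB6, chr2:160200273-160200522, minus strand: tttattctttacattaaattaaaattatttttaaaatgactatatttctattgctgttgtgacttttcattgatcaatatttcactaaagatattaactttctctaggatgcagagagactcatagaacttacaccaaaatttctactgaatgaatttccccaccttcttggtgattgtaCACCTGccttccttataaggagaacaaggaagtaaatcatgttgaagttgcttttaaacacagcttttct
ITGB8, chr7:20330650-20330899, plus strand: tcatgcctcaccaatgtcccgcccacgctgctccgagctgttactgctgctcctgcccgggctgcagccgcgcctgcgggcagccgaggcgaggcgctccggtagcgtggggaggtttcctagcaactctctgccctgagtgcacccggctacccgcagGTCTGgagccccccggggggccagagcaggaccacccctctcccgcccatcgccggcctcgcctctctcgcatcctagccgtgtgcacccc

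The *ITGB6* window had a GC content of 30.0% and no CpG, and its CACCTG lay 70 to 65 bases before the start. The *ITGB8* window had a GC content of 71.2% with 21 CpG, and its GTCTG lay 91 to 87 bases before the start. The *ITGB1* window had a GC content of 78.4% with 32 CpG and a CAGAC 133 to 129 bases before the start, while the *ITGB5* window, at 52.8%, held neither motif. Of the windows not printed, 1 of the other 2 of *ITGB5* held a CACCTG, 215 to 210 bases before its start, and that of *ITGB1* held a GTCTG 147 to 143 bases before its start. Over 35116 promoter windows of the same length, 38.0% held CAGAC or GTCTG and 17.5% held CAGGTG or CACCTG, so matches of this kind are common. None of the windows of *ITGB1*, *ITGB5*, *ITGB6*, *ITGB7* and *ITGB8* held TGACTCA or TGAGTCA, the AP-1 letters found in 4.20% of all windows. These matches describe letters only.

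Among the receptors for laminin and other matrix, *ITGB1* rose 2.00-fold within 1 day. On the later days its mean was between 1.68-fold (d15) and 2.19-fold (d4) that of d0. The d0 libraries held 21281, 21054 and 21013 normalized reads, and the d1 libraries 42710, 42778 and 41484. At d4 the values were 46887, 45039 and 46679.5, and at d20 they were 42281, 43039 and 44349. The lowest treated library, 34832 at d15, lay well above the highest untreated one. The log2 difference from d0 was 1.00, 1.13, 0.83, 0.99, 0.75 and 1.03 for the 6 treated days in order (SE 0.036, limma, largest adjusted p = 5.05e-14). The mean was highest at d4, 46202 ± 1012 (SD, n = 3), followed by d20, d1 and d10. The d20 mean was lower than that of d4 (log2 difference -0.096, limma adjusted p = 0.0237), while d20 and d1, and d1 and d10, did not differ beyond their spread. Levels were lowest among treated days at d7 (37573 ± 1586) and d15 (35469 ± 566), both called lower than d1 (limma adjusted p = 0.000296 and 1.73e-06). Under the alternatives tried, the log2 difference from d0 was as low as 0.64 at d1 and 0.51 at d15.

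*ITGB4*, the hemidesmosome subunit, had a larger and less even rise than *ITGB1*. Its values were 12686, 12876 and 12580.2 at d0, 46105, 45844 and 46085 at d1, and 76527, 79342 and 78793 at d4. At d7 the libraries held 71054, 63799.8 and 52824, and the library that stood apart was the lowest. Values fell to 37038, 38114 and 38031 at d10, climbed to 86465.5, 82842 and 81383.5 at d15, and were 41536, 39617 and 40729.5 at d20. All 18 treated libraries lay above all 3 untreated ones, and the d4 and d15 libraries lay above every library of d1, d10 and d20. The log2 difference from d0 was 1.86, 2.62, 2.29, 1.57, 2.72 and 1.68 in the order of the days (SE 0.065, limma, largest adjusted p = 6.76e-15), or 6.57-fold at d15. The means at d15 and d4 were not called different (limma adjusted p = 0.218), nor were those at d20 and d10 (adjusted p = 0.188). All other neighbours in the order d15, d4, d7, d1, d20, d10, d0 were called different. In both uncalled pairs the libraries of one day did not overlap with those of the other. The spread that limma used came from all timepoints in one fit, with the uneven d7 among them. *GALK1*, a galactokinase gene that overlaps *ITGB4* on the other strand, held between 187 and 443 in every library, and whether the counting used strand is not stated.

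**Figure D1:**
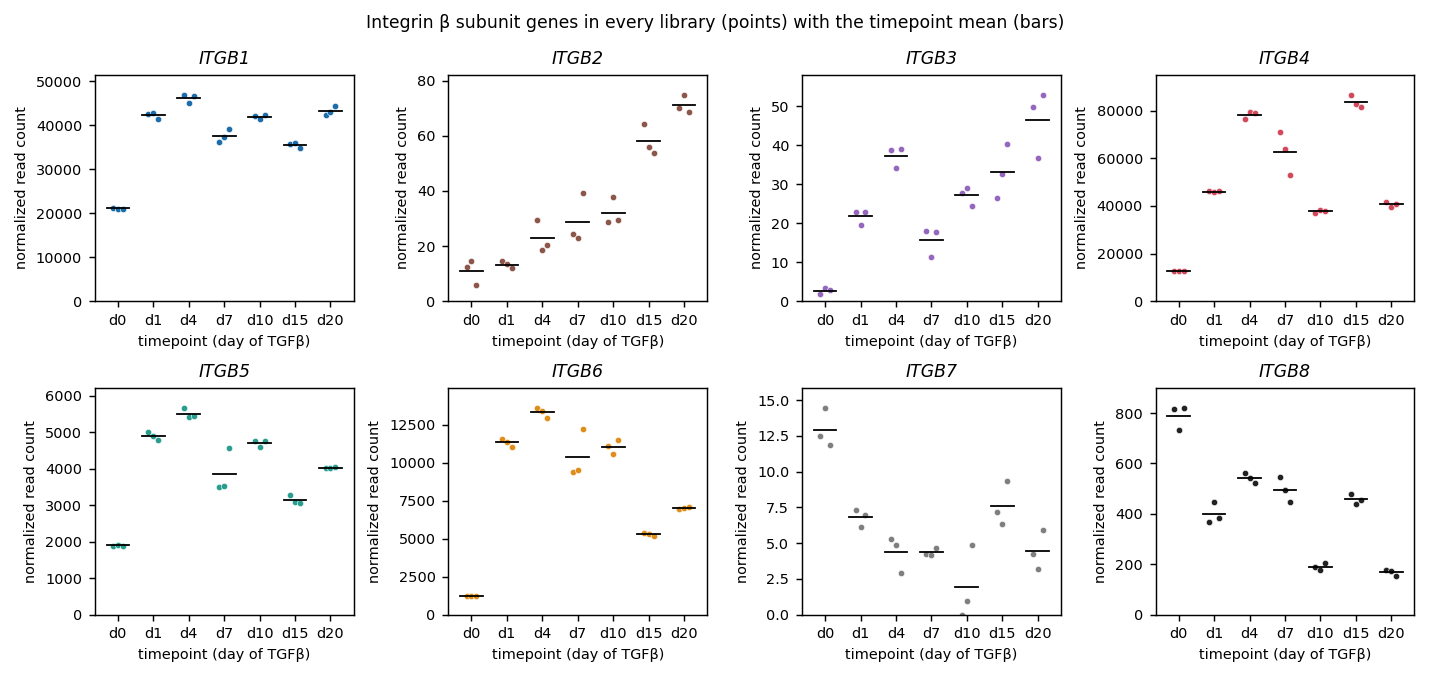
Normalized read count (vertical axis, starting at 0) of each β subunit gene at each timepoint of TGFβ treatment, with 1 point for each of the 3 libraries and a bar at their mean. *ITGB4* alternates between means of 78221 and 83564 at d4 and d15 and of 37728 and 40628 at d10 and d20, *ITGB6* falls from 13332 at d4 to 5294 at d15, and *ITGB8* is highest at d0.

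Of the subunits that pair with αv, *ITGB6* had the largest rise among the genes with more than a few reads at d0. Its values were 1222, 1199 and 1232 at d0, 11595, 11399.5 and 11044 at d1, and 13589, 13444 and 12962 at d4. They were 9428, 9519 and 12253 at d7, where the library that stood apart was the highest, and 11109, 10607 and 11484 at d10. The later days were lower, with 5374, 5308 and 5199 at d15 and 6969, 7048 and 7085 at d20, and these 6 libraries did not overlap with those of any earlier treated day. The log2 difference from d0 was 3.22, 3.45, 3.08, 3.18, 2.12 and 2.53 in the same order (SE 0.063, limma, largest adjusted p = 1.42e-17). At d1, 87 of the 13343 genes tested had a larger difference than *ITGB6*, and at d15, 403 did. Levels at d1, d10 and d7 did not differ between neighbours in that order, but without the third d7 library *ITGB6* was higher at d10 than at d7 by 0.22 on the log2 scale (adjusted p = 6.74e-08), against 0.10 with it (adjusted p = 0.165).

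*ITGB5*, a vitronectin receptor chain, was also highest at d4 and had its lowest treated day at d15, with smaller differences from d0 than *ITGB6*. The mean was 1893 ± 11.8 in untreated cells, 4896 ± 100 after 1 day and 5501 ± 127 after 4 days (SD, n = 3). It was 4698 ± 97.7 at d10, fell to 3134 ± 118 by d15 and was 4023 ± 21.6 on the last day. At d7 the libraries held 3491, 3517 and 4562, with the library that stood apart again the highest. The log2 difference from d0 lay between 0.73 at d15 and 1.54 at d4 (SE 0.064, limma, largest adjusted p = 1.23e-09), and the lowest treated library, 3053, lay above the highest untreated one, 1907. In the order d4, d1, d10, d20, d7, d15, d0, the pair d20 and d7 did not differ beyond their spread. The pair d1 and d10 was not called different either (limma adjusted p = 0.507), though their libraries did not overlap.

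*ITGB3*, best known from platelets and from the vitronectin receptor αvβ3, was nearly absent before treatment. The d0 libraries held 2, 4 and 3 reads, or 1.78, 3.39 and 2.97 normalized reads. The values were 23.0, 19.5 and 22.8 at d1, 38.9, 34.1 and 39.2 at d4, and 17.9, 11.5 and 17.7 at d7. At d10 they were 27.9, 29.1 and 24.4, at d15 26.5, 32.6 and 40.4, and at d20 49.8, 36.8 and 52.9. Every treated library lay above every untreated one. The ratio of summed reads to d0, corrected for library size, was 8.02 at d1 (95% interval 3.97 to 18.3), 5.80 at d7 (2.81 to 13.5) and 17.2 at d20 (8.79 to 38.4), and these intervals cover counting error only. The fitted log2 difference, 2.17 at d7 to 3.69 at d20 (SE 0.23, limma, largest adjusted p = 3.63e-08), depends on the constant added before the logarithm and was as low as 1.01 at d7 and 2.14 at d20 under the alternatives tried. When the treated days were ordered by level, no neighbours were called different, although the libraries of d10 and d1, and of d1 and d7, did not overlap. The d20 level was higher than that of d7 by 1.52 on the log2 scale (limma adjusted p = 8.36e-06).

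*ITGB8* was the tested β subunit gene that fell. The untreated libraries held 818, 731 and 818, and the d1 libraries 368, 445 and 383. Values were 562, 540.4 and 523 at d4, 544.5, 496 and 447 at d7, and 479, 439.6 and 455 at d15. The d10 libraries held 187, 175 and 206 and the d20 libraries 178, 173 and 155, so that these 6 libraries lay below all others. The log2 difference from d0 was -2.05 at d10 and -2.22 at d20, and on the other 4 treated days it lay between -0.99 (d1) and -0.54 (d4) (SE 0.085, limma, largest adjusted p = 7.80e-06). Levels at d4, d7 and d15 did not differ between neighbours, and neither did those at d10 and d20.

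**Figure D2:**
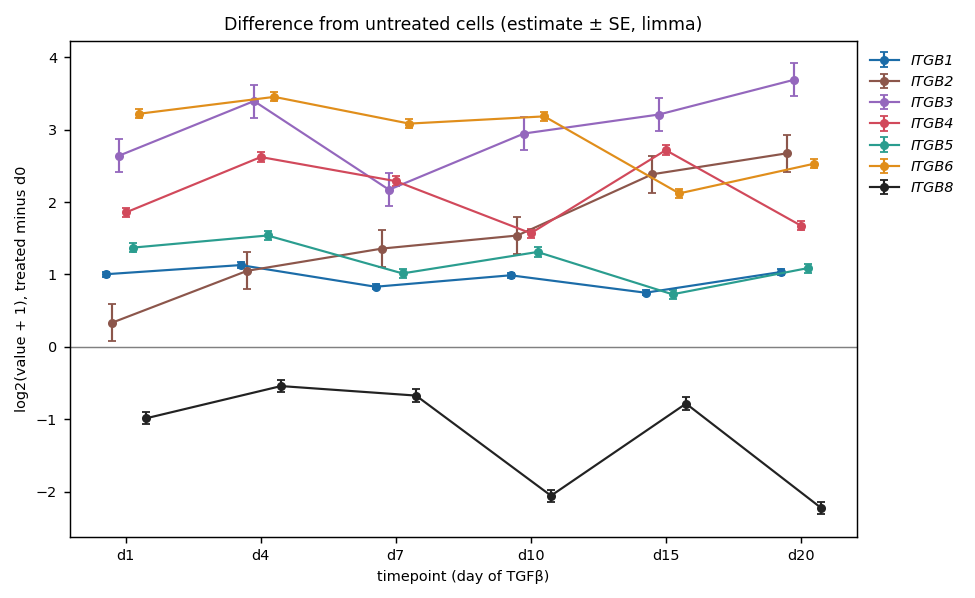
Difference in log2(value + 1) between each treated timepoint and d0 for the 7 β subunit genes tested, as the limma estimate with its SE (vertical bars), against the timepoint. *ITGB8* is below 0 at every day, *ITGB6* lies between 2.12 and 3.45, and *ITGB2* climbs from 0.34 at d1 to 2.67 at d20.

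The subunits known from leukocytes were rare. *ITGB2* held 12.5, 14.4 and 5.94 at d0 and 14.6, 13.3 and 11.9 at d1, and these groups overlapped (log2 difference 0.34, SE 0.26, limma adjusted p = 0.272). It held 29.4, 18.5 and 20.6 at d4, 24.3, 22.9 and 39.1 at d7, and 28.9, 37.9 and 29.3 at d10. It reached 64.3, 56.1 and 53.9 at d15 and 70.0, 74.7 and 68.5 at d20. From d4 on every library lay above every d0 library, and the log2 difference was 1.05, 1.36, 1.54, 2.38 and 2.67 for these 5 days in order (limma, largest adjusted p = 0.00105). The ratio of summed reads at d20 to d0 was 6.36 (95% interval 4.47 to 9.29, counting error only). The antisense gene *ITGB2-AS1* overlaps *ITGB2* in the GENCODE annotation, so without a statement on strand its reads cannot be told apart from those of *ITGB2*.

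Of the 5 leukocyte markers listed, *PTPRC*, *CD3E* and *SPI1* held 0 or 1 read in every library and were under the filter. *CD14*, a monocyte surface receptor, held 44.5 to 50.04 at d0 and was lower on every treated day (limma, largest adjusted p = 0.0103), and *CORO1A*, an actin-binding protein, held 167 to 205 at d0 and was higher on each day but d15, where it was lower. Its call at d7 (0.50) was lost without the third d7 library or the second d0 library (0.14 and 0.43, adjusted p = 0.109 and 0.0604). The summed level of all 5 was 217 to 250.3 at d0, 633 to 715 at d1, 312 to 346 at d4, 207 to 428 at d7, 774 to 834 at d10, 129 to 143 at d15 and 649 to 707 at d20, most of it from *CORO1A*. The part of these genes in the values of *ITGB2* was not tested.

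*ITGB7*, the partner of α4 and αE in lymphocytes, held 12.5, 14.4 and 11.9 at d0 and was lower in every treated library, where it lay between 0 and 9.32. The ratio of summed reads to d0 was 0.524 at d1 (95% interval 0.292 to 0.911), 0.581 at d15 (0.334 to 0.985) and 0.151 at d10 (0.0526 to 0.357), and on the other 3 days it was 0.334 to 0.344. The d10 libraries held 0, 1 and 5 reads. *ZNF740* overlaps *ITGB7* on the other strand in the GENCODE annotation and held between 773 and 1347 in every library. Without a statement on strand, its part in the values of *ITGB7* cannot be told. Its mean over the libraries was under 10, so it was not tested, and with no filter limma called it lower at d4, d7, d10 and d20.

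Counted together, 5 of the 7 β subunit genes tested were higher and 1 was lower at d1, where 31.3% of all genes tested were higher and 28.5% lower. On each later day 6 were higher and 1 was lower, while of all genes 36.9% were higher and 35.3% lower on d4, 34.6% and 32.6% on d7, 37.0% and 30.7% on d10, 39.2% and 37.3% on d15, and 32.5% and 30.2% on d20. The median log2 difference over the 7 genes lay between 1.36 (d7) and 2.12 (d15), beside medians over all genes tested between 0.00 and 0.03. The filter bears on these counts, since *ITGB3* passed it only through the treated libraries while *ITGB7*, with more reads at d0 than *ITGB2*, did not pass because it fell. With no filter 2 genes were lower at d4, d7, d10 and d20, and the counts of higher genes were as above. With a minimum change of 2-fold the single lower gene, *ITGB8*, remained only at d10 and d20.

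From d1 to d4 all 7 were higher, where 32.9% of all genes were, and from d4 to d7 5 were lower, where 25.5% of all genes were. At d4 against d1 the calls of *ITGB2* and *ITGB5* were lost without the third d1 or the first d4 library, and that of *ITGB5* also without the second d1 library (limma, adjusted p = 0.0560 to 0.112). From d7 to d10 3 were higher (*ITGB1*, *ITGB3* and *ITGB5*) and 2 lower (*ITGB4* and *ITGB8*), with 36.2% and 35.2% of all genes. From d10 to d15 *ITGB2*, *ITGB4* and *ITGB8* were higher and *ITGB1*, *ITGB5* and *ITGB6* lower, with 39.3% and 40.5% of all genes. From d15 to d20 *ITGB1*, *ITGB5* and *ITGB6* were higher and *ITGB4* and *ITGB8* lower, with 37.7% and 36.3% of all genes. From d7 on the counts of higher and lower genes were thus near the shares of all genes.

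The steps of *ITGB4* and *ITGB8* after d7 had the same sign each time. *ITGB4* changed by -0.72 on the log2 scale from d7 to d10, by 1.15 from d10 to d15 and by -1.04 from d15 to d20 (SE 0.065, limma, largest adjusted p = 3.68e-09). *ITGB8* changed by -1.38, 1.27 and -1.44 over the same steps (SE 0.085, limma, largest adjusted p = 1.53e-11). *ITGB1*, *ITGB5* and *ITGB6* moved the other way from d10 to d15, by -0.24, -0.58 and -1.06, and from d15 to d20, by 0.29, 0.36 and 0.41 (limma, largest adjusted p = 3.46e-05). The successive steps share a day, so they are not independent of each other.

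**Figure D3:**
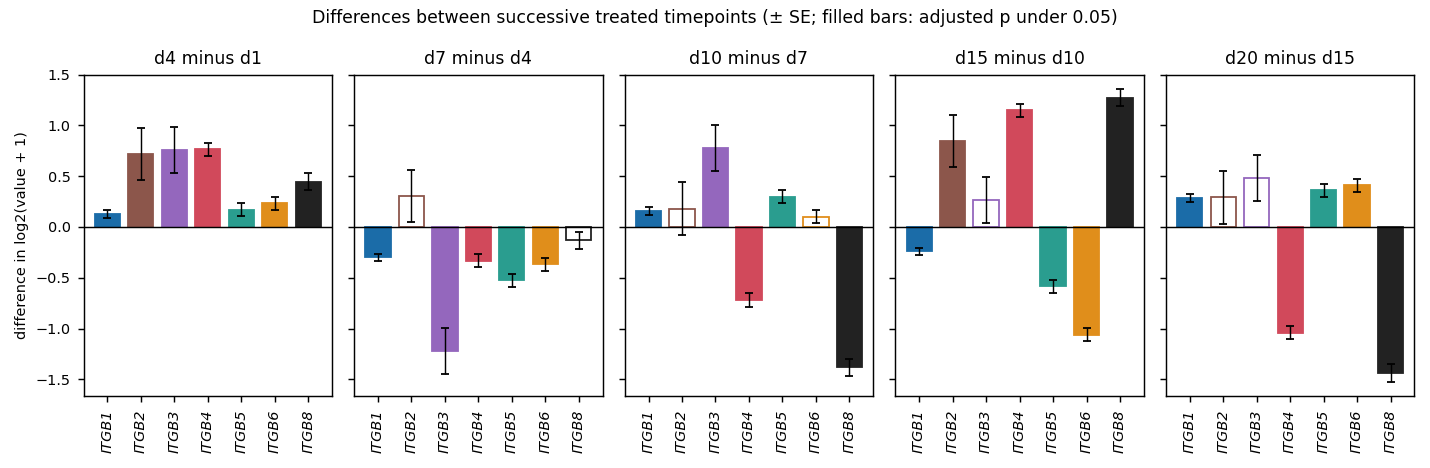
Difference in log2(value + 1) between successive treated timepoints for the 7 β subunit genes tested, as the limma estimate (bars) with its SE (vertical lines), filled where the adjusted p was under 0.05 and open where it was not. From d10 to d15 *ITGB4* and *ITGB8* rise by 1.15 and 1.27 while *ITGB6* falls by 1.06, and from d15 to d20 the signs turn.

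Proliferation genes moved over the same days. The summed level of 6 of them (*MKI67*, *TOP2A*, *CCNB1*, *CDK1*, *PCNA* and *MCM2*) was 46678 to 48078 in untreated cells, 27841 to 29139 on d4 and 41060 to 42160 on d10. On d15 it was 15768 to 16109 and on d20 45502 to 47184. It was 36135 to 37667 on d1 and 33434 to 43004 on d7. It was thus lowest at d15 and next lowest at d4, the days with the highest *ITGB4*, and the part of proliferation in the steps of *ITGB4* and *ITGB8* was not tested. The 5 basal markers summed to 332765 to 356890 at d0, 275832 to 286711 at d1, 270107 to 279300 at d4, 330254 to 692156 at d7, 190834 to 194998 at d10, 488211 to 505447 at d15 and 257567 to 261391 at d20. Their sum was thus highest on average at d7 and below d0 at d4, a day of high *ITGB4*. *KRT5* was its largest part at d0. At d4 3 of the 5 were called higher than d0 and only *KRT5* lower, with 36.9% and 35.3% of all genes. All 5 were lower at d10 than at d7, higher at d15 than at d10 and lower at d20 than at d15, as *ITGB4* was. These were the directions of 35.2%, 39.3% and 36.3% of all genes. Of the 5 epithelial markers, the same 4 also took these directions at each step, so the pattern was not particular to basal markers. The remaining 1 was called the other way from d7 to d10 and from d10 to d15. The part of the basal and epithelial markers in the steps of *ITGB4* was not tested.

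Per kilobase of the longest coding transcript, *ITGB1* and *ITGB4* made up most of the β subunit transcripts in every library. *ITGB1* gave 65.5% ± 0.21 of the summed value per kilobase in untreated cells and 49.6% ± 0.31 after 1 day (SD, n = 3). Its share was 41.2% ± 0.79 on d4, 52.9% ± 0.29 on d10, 36.9% ± 0.58 on d15 and 55.0% ± 0.79 on d20. *ITGB4* gave 25.2% ± 0.27 in untreated cells, and on the same 4 days 44.6% ± 0.89, 30.5% ± 0.55, 55.5% ± 0.56 and 33.1% ± 0.80. With these lengths *ITGB4* thus exceeded *ITGB1* per kilobase in all 6 libraries of d4 and d15, and in none of d0, d1, d10 and d20. The d4 libraries did so narrowly, with ratios of 1.04 to 1.13, and other transcript lengths were not tried. The ratio of *ITGB4* to *ITGB1* was 0.385 in untreated cells and 1.08, 0.576, 1.51 and 0.601 on those days, and on d7 it ranged from 0.860 in the library that stood apart to 1.26.

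Among the αv partners the make-up turned as well. *ITGB5* was the more abundant of *ITGB5* and *ITGB6* at d0, with an *ITGB6* to *ITGB5* ratio per kilobase of 0.602 ± 0.012, and *ITGB6* was at every treated day, with ratios of 1.58 at d15 to 2.52 at d7. *ITGB6* rose from 3.06% ± 0.050 of all β subunit transcript at d0 to 10.8% ± 0.14 at d1 and 11.3% ± 0.33 at d10, and was 4.45% ± 0.031 at d15. *ITGB8* fell from 1.06% ± 0.068 to 0.0928% ± 0.0079 at d20. The ratio of *ITGB6* to *ITGB8*, whose products both form receptors for latent TGFβ with αv, was 2.90 ± 0.15 in untreated cells and 53.6 ± 5.5 after 1 day. It was 109.6 ± 4.8 on d10, 21.7 ± 0.84 on d15 and 78.5 ± 6.5 on d20. *ITGB2*, *ITGB3* and *ITGB7* each gave at most 0.114% in any library. The summed value per kilobase over the 8 genes was 8521 ± 45.0 at d0, 29615 ± 121 at d4 and 20766 ± 292 at d20.

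**Figure D4:**
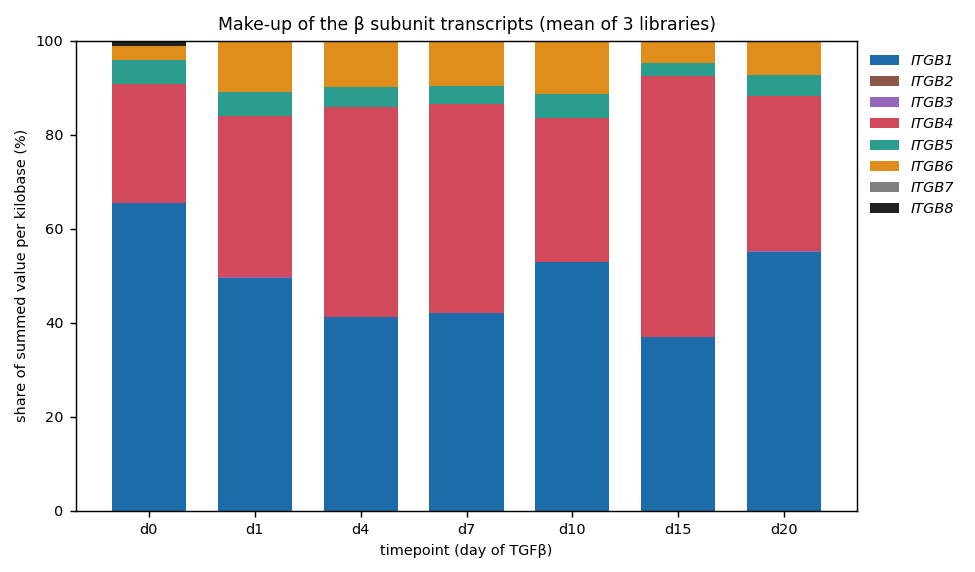
Share of each β subunit gene in the summed value per kilobase of the 8 genes (vertical axis, percent) at each timepoint, as the mean of 3 libraries. *ITGB1* falls from 65.5% at d0 to 36.9% at d15, where *ITGB4* holds 55.5%, and *ITGB6* holds between 9.42% and 11.3% from d1 to d10.

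Of the 18 α subunit genes, 11 passed the filter, and 6 of these were higher than d0 on every treated day: *ITGA1*, *ITGA2*, *ITGA3*, *ITGA5*, *ITGA6* and *ITGAV*. The number higher ranged from 6 at d1 to 8 at d4, d10 and d20, and the number lower from 0 at d7 and d15 to 2 at d1, d10 and d20. Among all genes tested, 31.3% to 39.2% were higher and 28.5% to 37.3% lower on the treated days. *ITGA4*, *ITGA8*, *ITGA9*, *ITGA11*, *ITGAD*, *ITGAL* and *ITGAM* were under the filter.

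*ITGA6*, which forms laminin receptors with either β1 or β4, held 8789, 8459 and 8510 at d0 and 25290, 24920 and 24203 at d1. Its log2 difference from d0 was 1.53, 1.33, 0.94, 1.56, 0.68 and 1.15 for the treated days in order (SE 0.034, limma, largest adjusted p = 1.03e-13). It was lower at d15 than at d10, as *ITGB1* was, whereas *ITGB4* was higher. *ITGA3*, the α3β1 laminin receptor chain, was higher than d0 by 0.88 at d15 to 1.33 at d10. *ITGA2* and *ITGA1*, collagen receptor chains, were higher by 0.61 at d15 to 2.03 at d1 and by 1.23 at d1 to 1.71 at d4. *ITGA5*, the fibronectin receptor chain, was higher by 1.26 at d10 to 2.14 at d4, with values of 4450 to 4962 at d0 and 20316 to 21196 at d4.

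*ITGAV*, the α partner of β3, β5, β6 and β8, held 3748, 3588 and 3696 at d0 and rose on each day, by 1.00, 1.47, 1.52, 0.85, 1.65 and 1.28 in order on the log2 scale (SE 0.046, limma, largest adjusted p = 6.88e-13). Its highest mean, 11578 ± 218 (SD, n = 3), was at d15, the treated day on which *ITGB5* and *ITGB6* were lowest. Among rarer chains, *ITGA10* was higher from d10 on, by 0.68 to 1.32, and at d4 by 0.47. *ITGAX*, a β2 partner, held between 17.8 and 19.5 at d0 and was called higher at d4, d7 and d20 but not at d10 or d15. Its call at d7 was lost without the second or the third d7 library (0.52 and 0.55). *ITGA2B*, the platelet partner of β3, was called lower at d1, d10 and d20, and its call at d20 was lost without the third d20 library (-0.88, adjusted p = 0.0800). *ITGA7* was called lower at d1, d4, d10 and d20, and its call at d20 was lost without the second d20 library (-0.77, adjusted p = 0.101). *ITGAE*, a β7 partner, was called higher at d10 only (0.46, adjusted p = 0.00167), and without the third d7 library it was also called lower at d7 (-0.30, adjusted p = 0.0209, against -0.17 and 0.198 with it).

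**Figure D5:**
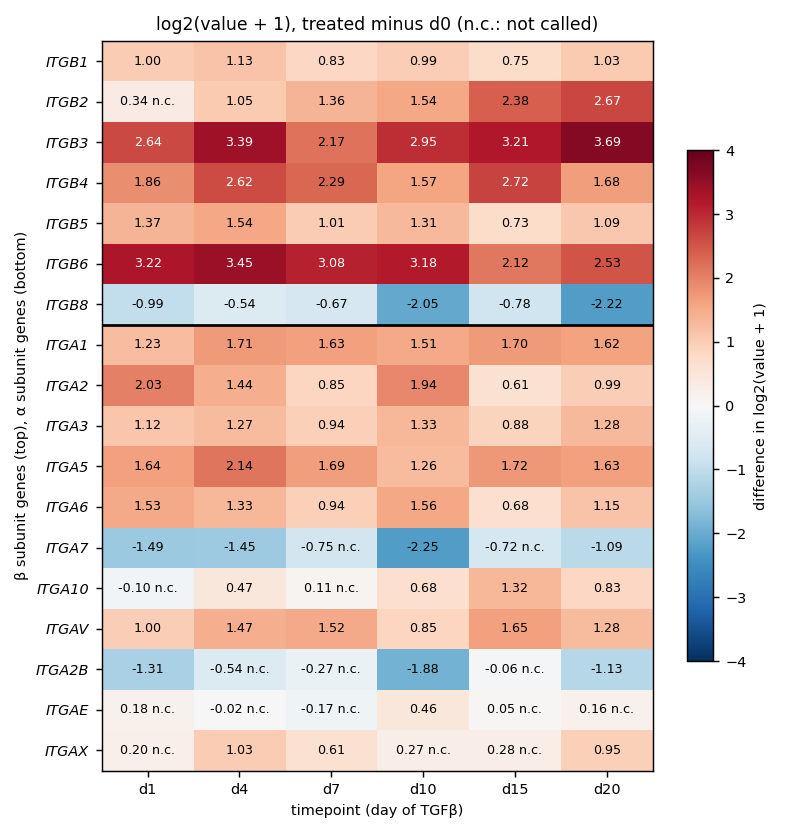
Difference in log2(value + 1) from d0 at each treated timepoint for the 7 β subunit genes (above the line) and 11 α subunit genes (below it) that passed the filter, with the value in each cell and n.c. where limma made no call. *ITGB8*, *ITGA7* and *ITGA2B* are the genes with called decreases, and 6 α genes are higher at every day.

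Genes of adaptor proteins at integrin tails, bound there directly or through other adaptors, mostly rose. The list includes the talins and kindlins, which switch integrins on. Of 21 listed, 19 passed the filter, and 18 were higher at d1, 17 at d4, d7 and d10, 15 at d15 and 19 at d20, while 1 was lower at d4 and 3 at d15. Some of these calls at d1, d4, d15 and d20 were lost when 1 library was left out. A call of higher at d4 (log2 difference 0.22) was lost whichever library of d0 or d4 was left out. Of all genes tested, 31.3% to 39.2% were higher and 28.5% to 37.3% lower over these days. Their median log2 difference was 0.59 at d1 and 0.73 at d20, smaller than that of the β subunits themselves. *LIMS2*, one of the adaptors of the ILK complex, rose from a mean of 2.4 at d0 to 37.4 at d15, *DAB2* from 87.1 to 454 at d20 and *TNS1*, a tensin, from 484.5 to 1515 at d20. *LIMS2* passed the filter only through treated libraries. *FERMT1*, the epithelial kindlin, was higher than d0 by 1.75 at d1 and by 1.57 at d10 and lower by 0.29 at d15 (limma log2 difference of -0.29).

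The other parts of the hemidesmosome and its laminin were also mostly higher than d0. Of the 7 genes listed, 6 were higher and 1 was lower at d1, d4, d10 and d20, and all 7 were higher at d7 and d15. *ITGA6* was also counted among the α subunit genes, and *LAMA3* and *LAMB3* among the ligands, so the lists are not separate. The shares of all genes tested were 31.3% to 39.2% higher and 28.5% to 37.3% lower over the treated days. *LAMA3* and *LAMB3*, which encode laminin chains of the matrix that α6β4 and α3β1 bind, reached means of 156805 and 119907 at d4, from 8369 and 8723 at d0, and *COL17A1*, a transmembrane collagen of hemidesmosomes, 61265 at d7 from 19318. The d7 libraries of *COL17A1* held 70458, 69120 and 44217, and the library that stood apart was the lowest, below the d4 mean of 49287. *DST*, which encodes the plakin that ties hemidesmosomes to keratin, was the gene that was lower, a name chosen after its values were seen. It was higher at d7 and d15, by 0.57 and 0.73, and lower on the other treated days, by between -0.68 and -0.36 on the log2 scale. At d7 its libraries held 20037, 20534 and 12219, and the last, which stood apart, lay within the d0 range of 11110 to 12271.

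The ligands had larger median differences than the β subunit genes on every day. Of 20 listed, 17 passed the filter, and between 12 and 14 of these were higher than d0 on each day and between 1 and 3 lower, with a median log2 difference from 1.78 at d4 to 2.57 at d20. Over the same days 31.3% to 39.2% of all genes tested were higher and 28.5% to 37.3% lower. *POSTN*, *COL1A2* and *COL3A1*, with d0 means of 0, 3.1 and 7.8, passed the filter only through treated libraries. The filter thus bears on these counts and on the median. *FN1*, fibronectin, bound by α5β1 and αv integrins and also counted among the mesenchymal markers, rose from a mean of 4243 at d0 to 155910 at d1 and 539309 at d20. *POSTN*, periostin, was at 0 in the d0 libraries and reached 801 at d15, and *COL1A1* and *COL1A2*, the chains of type I collagen, went from 461.5 and 3.1 to 28233 and 691 at d20.

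Of the 7 genes of latent TGFβ, the cargo of αvβ6 and αvβ8, 5 passed the filter. *TGFB1*, *TGFB2* and *LTBP1* were higher than d0 on all 6 days, with *TGFB1* between 0.99 at d10 and 1.51 at d4 on the log2 scale and *TGFB2* reaching 2.63 at d20. *TGFB3* was called lower on each day but d15, and its call at d7 (-0.72) was lost when any 1 of the 6 libraries of d0 and d7 was left out. *LTBP3*, which binds latent TGFβ (a name chosen after its values were seen), was higher at d1, d4 and d7 and lower at d10 and d20.

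Across the 21 libraries, which share the step from d0 to treatment, the β subunit genes fell into patterns that are given as a description. Pearson's r on log2(value + 1) was 0.965 between *ITGB5* and *ITGB6*, 0.958 between *ITGB1* and *ITGB5* and 0.954 between *ITGB1* and *ITGB6*, while *ITGB8* had negative values with all 6 others, from -0.65 with *ITGB3* to -0.14 with *ITGB4*. Outside the integrin family, *ELK3* (r = 0.994) and *SERPINE2* (0.992) were most like *ITGB1*. Those most like *ITGB4* were *ANO6* (0.995), *PPP1R13L* (0.990) and *CD151* (0.989), the last a tetraspanin of hemidesmosomes.

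The genes most like *ITGB5* were *HMGXB3* (0.988), *EXT1* (0.975) and *PLAU* (0.972), the urokinase gene, and those most like *ITGB6* were *TGM2* (0.988), a transglutaminase, *GNA15* (0.985) and *EXT1* (0.980). *TGM2* was higher than d0 by 6.69 at d1 and by 4.82 at d15 on the log2 scale, and so had its lowest treated day at d15, like *ITGB6*. For *ITGB8* they were *RAB25* (0.982), an epithelial trafficking GTPase, *SCNN1A* (0.970), a sodium channel subunit, and *SERPINB13* (0.962), and *RAB25* was lower than d0 by 0.28 at d4 and 1.58 at d20 (log2 differences of -0.28 and -1.58). For *ITGB2* they were *FBN1* (0.954), the fibrillin gene, *MME* (0.944) and *COPZ2* (0.942), and for *ITGB3* *LASP1* (0.972), *CD63* (0.971) and *DAB2* (0.964).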

How the data were processed

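RNA-seq libraries of HMLE cells were analysed for 7 timepoints with 3 libraries each, grouped by the labels. The values deposited by the authors are a signal: the reads of a gene symbol in a library over that library's size factor. Multiplying back gave whole reads for 100% of values (within 0.05 of a read). Per the labels, RNA was extracted with Trizol and libraries followed standard Illumina protocols, and the submitters' processing notes name STAR 2.7, Salmon 1.4 and hg19 without roles. The strand setting is not given in the sources used here. The totals of 18847917 to 22667754 reads set the precision, 3 reads being a value of 2.54 to 3.18.

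The 13343 genes averaging 10 or more across the 21 libraries entered limma 3.58.1 (R 4.3.3) as log2(value + 1), using lmFit, then contrasts.fit and a trended eBayes, two-sided and with every timepoint in one fit, with Benjamini-Hochberg adjustment over all genes tested within each contrast and a threshold of 0.05. Neighbours in the order of the timepoint means that passed no threshold were described as not called different. Where their libraries also overlapped, they were described as not differing, or as not differing beyond their spread. Ratios of summed reads carry exact binomial 95% intervals. Lengths came from the longest coding transcript in GENCODE v29 and promoters from RefSeq. Alternatives were a pseudocount of 10, no filter (19546 genes), equal totals, quantile normalization, only the 2 timepoints compared, edgeR 4.0.16 and DESeq2 1.42.0 on the recovered reads, a minimum of 2-fold, each library left out, and, chosen after seeing the data, a fit without d7. The fits were tested on simulated data.

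The genes and lists were chosen with earlier results of these data known. Named were all 8 members, the α partners that passed the filter, up to 4 genes per list by their largest called difference, and the 3 genes most correlated with each member. Some genes that these rules and lists would name are not reported here, and the counts of the lists leave them out.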

Additional observations from a re-analysis of the deposited data

Results flagged for a closer look

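For each β subunit gene tested, 1 pair of treated days is given whose changes from d0 differed by limma's test of the difference itself, and each pair is the largest of the called differences between treated days, so its size was chosen from the data. *ITGB4* was higher at d15 than at d10 by 1.15 on the log2 scale (adjusted p = 7.78e-13), and *ITGB8* differed between d20 and d4 by -1.68 (adjusted p = 1.02e-12). *ITGB6*, *ITGB5* and *ITGB1* differed between d15 and d4 by -1.33 (adjusted p = 4.21e-13), -0.81 (adjusted p = 9.86e-10) and -0.38 (adjusted p = 1.54e-08). *ITGB2* was higher at d20 than at d1 by 2.34 (adjusted p = 3.12e-07), and *ITGB3* was higher at d20 than at d7 by 1.52 (adjusted p = 8.36e-06). In each of these pairs the 3 libraries of one day did not overlap with those of the other. That separation largely follows from choosing the largest called difference and is no added support.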

How the results depend on the processing

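Of the counts of β subunit genes against d0, 8 of 178 values under other settings moved by over 1.5 times. With a minimum of 2-fold the count of lower genes went from 1 to 0 at d1, d4, d7 and d15, and with no filter it went from 1 to 2 at d4, d7, d10 and d20, through *ITGB7*. Of the counts for successive days, 6 of 146 moved, all with the minimum of 2-fold: higher at d4 against d1 (0 in place of 7), lower at d7 against d4 (1 in place of 5), higher and lower at d10 against d7 (0 in place of 3 and 1 in place of 2), lower at d15 against d10 (1 in place of 3) and higher at d20 against d15 (0 in place of 3). No count moved that far when 1 library was left out. Of 581 log2 differences of single genes against d0, 1 turned: *ITGB2* at d1 was -0.016 without the third d0 library, within a range of -0.016 to 0.56 over the left-out libraries, and was not called in any of them. Of 476 differences between successive days, *ITGB3* at d15 against d10 and *ITGB6* at d10 against d7 turned to -0.20 and -0.028 with quantile normalization, neither called, and the causes were not tested. Calls were lost for *ITGB1* at d10 against d7 (quantile normalization, 2 timepoints only), *ITGB2* at d4 against d1 and at d15 against d10 (quantile normalization, the former also without the third d1 or the first d4 library, 0.64 and 0.52), *ITGB4* at d7 against d4 (2 timepoints only, adjusted p = 0.0594) and *ITGB5* at d4 against d1 (without the second or the third d1 or the first d4 library, 0.15 to 0.17). Calls were gained for *ITGB3* at d20 against d15 under 6 settings, among them edgeR (0.49) and leaving out the third d15 or second d20 library (0.63 and 0.64), for *ITGB2* at d10 against d7 with quantile normalization (0.61) and for *ITGB6* at d10 against d7 without the third d7 library (0.22). Of 996 counts for the other lists, 42 moved, all of them small counts of lower genes. Depth limits *ITGB2*, *ITGB3* and *ITGB7*, which rest on 37, 9 and 43 summed reads at d0. No paired analysis was possible because no column name gives a replicate number.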
